A study of Mus musculus with 53 samples.

Results

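The sarcomeric myosin heavy chains are the motor proteins of the striated muscle thick filament. The 7 genes Myh3, Myh8, Myh7, Myh6, Myh1, Myh2 and Myh4 were chosen by symbol. All 7 were found once among the 55573 genes of the bulk RNA-seq tables at postnatal day 2 (P2) and once among the 57010 genes of the single-cell matrices at postnatal day 7 (P7).

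The study deleted transcription factors from the granule cell lineage of the mouse cerebellum with Atoh1Cre. Insm1 mutants carried Atoh1Cre and Insm1fl/fl, and Insm1 controls carried Insm1fl/fl without Cre. Tead1/2 mutants carried Atoh1Cre, Tead1fl/fl and Tead2fl/fl, and Tead1/2 controls carried both floxed pairs without Cre. Bulk P2 libraries, of the cerebellar cells of 1 pup each, came from 4 controls and 4 mutants of Insm1 and from 3 controls and 4 mutants of Tead1/2. At P7 there were single-cell libraries of 1 dissociated and fixed cerebellum each, with 2 controls and 3 mutants of each allele. Atoh1Cre acts in granule cell progenitors and a few other rhombic lip derivatives, so that other cerebellar cells of a mutant keep the floxed genes intact. Per the labels the P2 Insm1 libraries were batch 2 and the P2 Tead1/2 libraries batch 3, so the allele and the batch cannot be told apart at P2.

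Each sarcomeric heavy chain is encoded by its own gene, and striated muscles switch between these genes during development. Myh3 encodes the embryonic chain, the first developmental isoform of forming skeletal fibres, and Myh8 encodes the perinatal chain that follows it. Myh7 encodes the slow chain of type I fibres and the beta chain of the heart, and Myh6 the alpha chain of the heart. Myh2, Myh1 and Myh4 encode the IIa, IIx and IIb chains of adult fast fibres.

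Library depth was 2.81e+07 to 6.45e+07 expected counts at P2 and 9.03e+07 to 2.12e+08 unique molecular identifiers (UMIs) in cells at P7. Insm1 RNA lay between 8.39 and 16.1 CPM (counts scaled to a common library total) in the P2 Insm1 mutants and between 30.8 and 71.5 in their controls, and at P7 between 5.73 and 14.4 against 56.6 and 58.5. Tead2 RNA lay between 7.31 and 9.09 CPM in the P7 Tead1/2 mutants and at 29.8 and 32.03 in their controls. Tead1 RNA was higher, not lower, in the P7 Tead1/2 mutants (1132 to 1319 CPM against 626 and 633), and the position of its counted reads relative to the deleted part is not known, so it does not check the labels. At P2 the library labelled Tead1/2 mutant 4 held 26.2 CPM of Tead2, above all 3 controls (21.5 to 25.7), whereas the other 3 mutants held 17.6 to 20.1. The results of that comparison are therefore given with and without it. Sex, set by whether a library held more Xist or Ddx3y RNA, was not balanced. At P2 the Insm1 controls and Insm1 mutants 1 and 2 held more Xist, and Insm1 mutants 3 and 4 more Ddx3y. Tead1/2 control 2 and mutant 4 held more Xist, and the other P2 Tead1/2 libraries more Ddx3y. At P7 the Tead1/2 controls and mutant 3 held more Xist, and Tead1/2 mutants 1 and 2 more Ddx3y. In a list of 16 skeletal muscle markers that holds no myosin heavy chain, 14 to 16 were above 0 in each P2 library. For Insm1 their summed level was 19.9 to 43.3 CPM in controls and 154 to 238 in mutants. For Tead1/2 it was 24.7 to 26.1 CPM in controls and 161 to 215 in mutants 1 to 3. It was 19.1 CPM in the library labelled Tead1/2 mutant 4.

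Myh3, Myh2, Myh1, Myh4 and Myh8 lie in this order on chromosome 11, between base 67078273 and base 67308634 (GRCm38.p6), and Myh6 and Myh7 lie side by side on chromosome 14. The noncoding RNA genes Myhas and Mhrt overlap Myh1 and Myh7, and whether strand was used in counting is not given in the sources used here, so their reads may be mixed. The promoter windows of the fast and developmental genes are shown because these genes share a cluster and rose together at P7. RefSeq windows from 250 bases before to 50 bases after the start site (GRCm38.p6) were found for all 7 genes. Capitals in the first sequence mark the E-box CAGTTG, 191 bases before the start site, and the TATA-type match TATAAAA at -29. Capitals in the second mark the run TTCTAATTATATCC and the E-boxes CAAATG and CAAGTG, and in the last 3, which are stretches of their windows, the same run.
Myh3, chr11:67078050-67078349, plus strand: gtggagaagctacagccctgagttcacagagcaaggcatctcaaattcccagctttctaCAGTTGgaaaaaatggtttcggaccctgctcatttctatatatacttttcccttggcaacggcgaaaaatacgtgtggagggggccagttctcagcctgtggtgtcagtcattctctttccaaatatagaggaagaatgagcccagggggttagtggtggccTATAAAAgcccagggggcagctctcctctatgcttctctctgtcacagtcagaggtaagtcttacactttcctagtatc
Myh8, chr11:67276874-67277173, plus strand: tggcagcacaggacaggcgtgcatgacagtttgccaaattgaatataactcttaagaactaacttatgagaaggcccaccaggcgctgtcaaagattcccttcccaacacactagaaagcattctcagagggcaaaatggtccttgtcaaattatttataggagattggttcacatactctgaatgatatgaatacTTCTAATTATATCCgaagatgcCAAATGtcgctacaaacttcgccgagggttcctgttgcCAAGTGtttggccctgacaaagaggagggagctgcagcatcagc
Myh2, chr11:67170862-67170941, plus strand: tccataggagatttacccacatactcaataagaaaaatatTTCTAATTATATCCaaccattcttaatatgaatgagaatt
Myh1, chr11:67199902-67199981, plus strand: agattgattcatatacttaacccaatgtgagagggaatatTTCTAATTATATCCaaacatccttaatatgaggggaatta
Myh4, chr11:67237614-67237693, plus strand: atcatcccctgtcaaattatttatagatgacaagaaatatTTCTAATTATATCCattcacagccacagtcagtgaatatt
The 14-letter run was picked as the longest one shared by the windows of Myh1, Myh2, Myh4 and Myh8, so its presence in these was fixed. It was found in 4 of 32851 promoter windows of this length, those of these genes, and not in that of Myh3. The longest run that these genes shared with Myh3 had 7 letters and was found in 1103 windows. The longest run shared by Myh3 and Myh8 had 8 letters and was found in 326 windows. On either strand, CANNTG (E-box) was in 72.3% of all windows and in those of Myh3, Myh8, Myh4, Myh6 and Myh7. CATTCC (the MCAT element bound by TEAD factors) was in 14.7% of all windows, among them those of Myh1, Myh4, Myh6 and 1 of the 2 windows of Myh7. TATAAAA was in 5.48% of all windows and in those of Myh3, Myh1, Myh2 and Myh4. The MEF2-type palindrome was in 3.69% of all windows and in none of these 7 genes' windows. These matches describe letters in short windows and say nothing about binding.

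In the P2 cerebellum, Insm1 deletion was followed by a rise of the embryonic gene Myh3, the 1 member that edgeR called. Myh3 stood at 1.83, 4.19, 1.52 and 1.58 CPM in the 4 controls and at 50.2, 48.5, 24.0 and 46.2 CPM in the 4 mutants. The groups did not overlap. The rise was 4.22 on the log2 scale (SE 0.35, adjusted p = 0.000669, edgeR), and it was higher in 4 of 4 mutants. The edgeR test called 0.689% of 19582 genes in this comparison and 0.48% as higher, and it called 1 of the 3 members that passed its filter on low counts. In a bulk library, more cells of a type and more RNA per cell cannot be told apart.

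The perinatal gene Myh8 was at 13.8, 12.5, 13.2 and 13.1 CPM in Insm1 controls and at 16.8, 17.7, 14.8 and 17.2 CPM in Insm1 mutants. The groups did not overlap, but the difference was small beside that of Myh3: 0.35 on the log2 scale (SE 0.08, adjusted p = 0.111, edgeR), and DESeq2 gave an adjusted p of 0.0122. The slow gene Myh7 overlapped between the groups (1.61 to 2.49 CPM in controls and 1.86 to 2.52 in mutants), with a log2 difference of -0.02 (SE 0.18, adjusted p = 0.985, edgeR). Myh6, Myh2, Myh1 and Myh4 did not pass the filter, with at most 16.6, 17.1, 6.01 and 3.02 expected counts in any Insm1 library. Fitted without the filter, none of the 4 passed edgeR's test (unadjusted p = 0.233 to 0.849), and their low counts leave small changes out of reach.

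**Figure D1:**
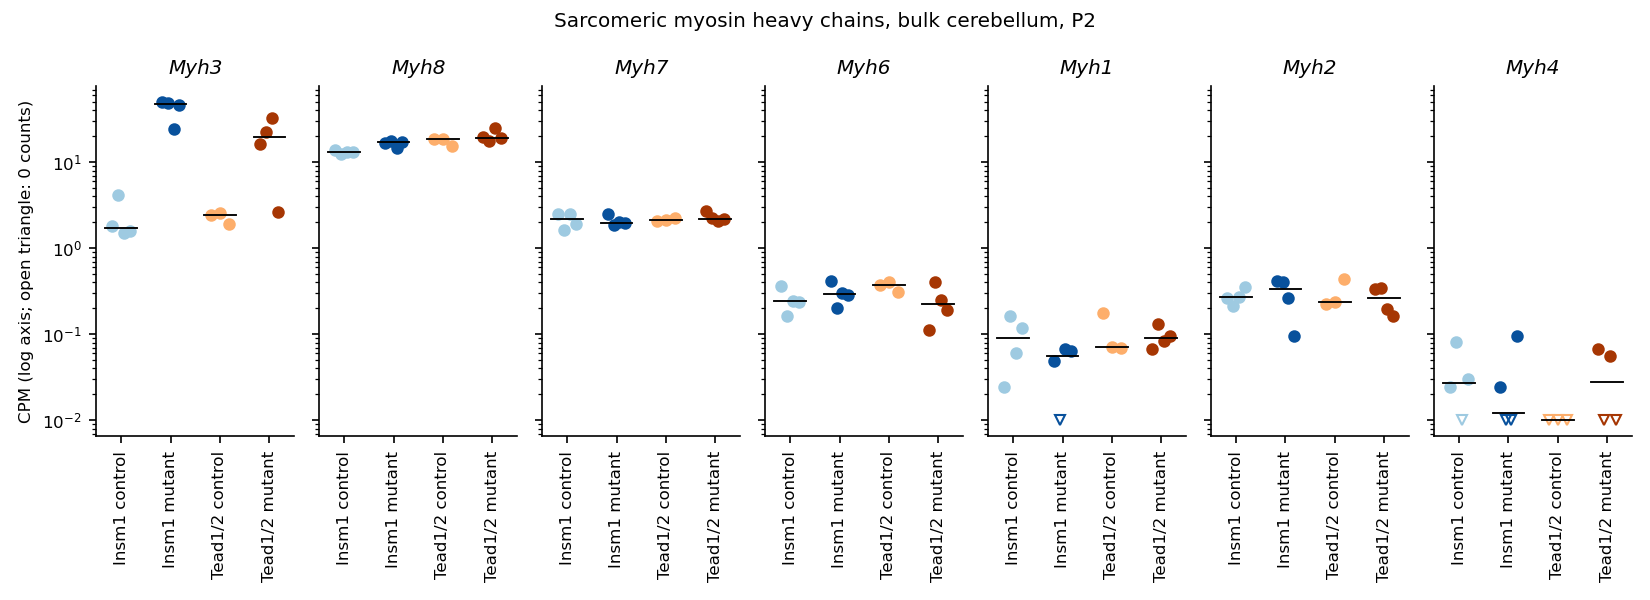
Level of each gene (CPM, log axis) in every P2 bulk library; each point is 1 pup, the line is the group median and open triangles are 0 counts. Myh3 separates the Insm1 mutants and 3 of the 4 Tead1/2 mutants from their controls. Myh8 also separates the Insm1 groups, by far less, and overlaps between the Tead1/2 groups. Myh7 overlaps between the groups of both alleles.

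In the P2 Tead1/2 mutants Myh3 stood at 16.3, 22.6 and 32.8 CPM in mutants 1 to 3 and at 2.64 CPM in the library labelled mutant 4, against 2.43, 2.54 and 1.91 CPM in the 3 controls. Mutants 1 to 3 were all above the controls, and the library labelled mutant 4 lay next to the highest control. Over all 7 libraries the log2 difference was 2.98 (SE 0.64, adjusted p = 0.0904, edgeR), past the threshold in none of the 5 members tested. The edgeR test called 0% of 20247 genes here, although 4052 had an unadjusted p under 0.05 and DESeq2 called 960, Myh3 among them. Without the library labelled mutant 4, edgeR called 3.19% of genes and 1.98% as higher. Myh3 was then the 1 member called, with a rise of 3.33 (SE 0.24, adjusted p = 0.000104).

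The other members of the P2 Tead1/2 comparison did not pass the test with or without that library. Myh8 was at 18.5, 18.7 and 15.5 CPM in controls and at 19.6, 17.5, 24.7 and 19.0 CPM in mutants, which overlapped. The log2 differences were 0.17 for Myh8 (SE 0.11, adjusted p = 0.432, edgeR), 0.08 for Myh7, -0.56 for Myh6 and -0.14 for Myh2. The test of the Tead1/2 effect against the Insm1 effect at P2 called 0 of 5 members and 0% of 20837 genes, with 1435 genes at an unadjusted p under 0.05 and 17 called by DESeq2. For Myh3 this difference was -1.23 (SE 0.79, adjusted p = 0.835, edgeR), and -0.88 (SE 0.49, adjusted p = 0.799) without the library labelled mutant 4. It ranged from -1.70 to -0.88 when each library was left out.

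At P7 all 7 genes were higher in the mutants of both alleles. With UMIs summed over the cells of each library, edgeR called 7 of 7 members higher in the Insm1 comparison, where it called 33.9% of 24602 genes and 18.6% as higher. It also called 7 of 7 higher in the Tead1/2 comparison, where it called 48.6% of genes and 25.9% as higher. Myh1, Myh2 and Myh4 had at most 7 UMIs in any control library and passed the filter on low counts through the mutant libraries. For these genes a call as lower was out of reach. All 7 calls in both comparisons held when each library was left out and with sex as a term. With cells removed at the own threshold of the doublet caller Scrublet, 5 of the 7 Insm1 calls and all 7 Tead1/2 calls held.

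**Figure D2:**
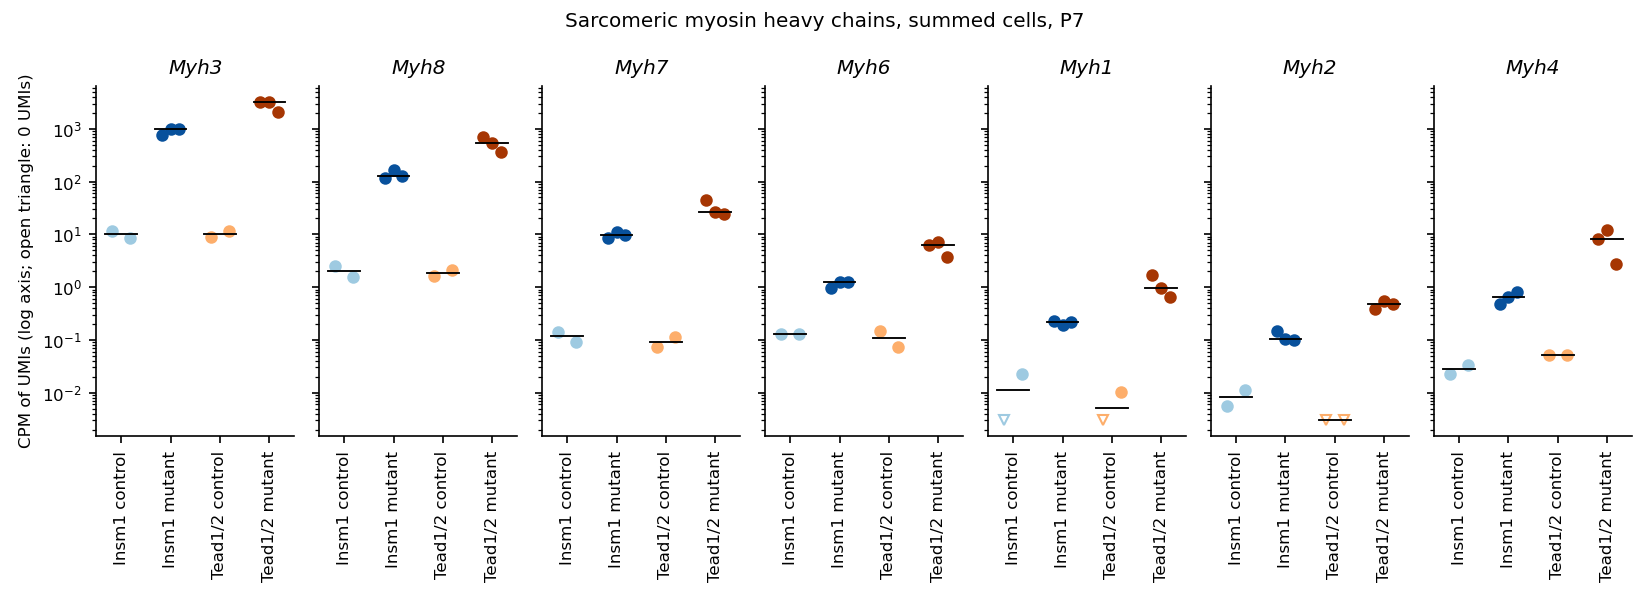
Level of each gene (CPM of summed UMIs, log axis) in every P7 library; each point is 1 cerebellum, the line is the group median and open triangles are 0 UMIs. The Myh8 points lie between 1.54 and 2.54 CPM in the 4 controls, between 117 and 163 in Insm1 mutants and between 363 and 692 in Tead1/2 mutants.

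Myh3 was at 11.5 and 8.53 CPM in Insm1 controls and at 775, 1007 and 975 CPM in Insm1 mutants, a rise of 6.53 on the log2 scale (SE 0.28, adjusted p = 1.16e-07, edgeR). Tead1/2 controls held 9.08 and 11.4 CPM, and the Tead1/2 mutants held 3180, 3231 and 2055 CPM, a rise of 8.10 (SE 0.30, adjusted p = 2.54e-08). The 4 controls lay between 8.53 and 11.5 CPM, and the Tead1/2 mutants stood 303-fold and the Insm1 mutants 96.9-fold above their controls in pooled UMIs. The part of RNA from outside the cells in the control UMIs was not tested. The number 1 library of each group is of all lobules and the others lack lobules IX and X, so each dissection holds libraries of all 4 groups.

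Myh8 was at 2.54 and 1.54 CPM in Insm1 controls and at 117, 163 and 127 CPM in Insm1 mutants (log2 rise 6.07, SE 0.36, adjusted p = 8.71e-07, edgeR). The Tead1/2 controls held 1.64 and 2.14 CPM and their mutants 692, 541 and 363 CPM (log2 rise 8.14, SE 0.40, adjusted p = 1.29e-07). These log2 rises lay near those of Myh3, slightly below with Insm1 deletion and slightly above with Tead1/2 deletion. P2 and P7 differ in assay as well as age, so the rises are not compared with those at P2.

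The slow gene Myh7 was at 0.14 and 0.09 CPM in Insm1 controls and at 8.43, 10.9 and 9.52 CPM in Insm1 mutants. Tead1/2 controls held 0.07 and 0.11 CPM and Tead1/2 mutants 45.6, 26.8 and 24.7 CPM of it. Its rises were 6.36 (SE 0.38) and 8.47 (SE 0.42), close to those of Myh3. The cardiac gene Myh6 rose less, by 3.19 (SE 0.35, adjusted p = 6.93e-05, edgeR) with Insm1 deletion and by 5.63 (SE 0.38, adjusted p = 1.26e-06) with Tead1/2 deletion, or by 6.29 without Tead1/2 control 1. Both Insm1 controls held 0.13 CPM of it and their mutants 0.98 to 1.27. The Tead1/2 controls held 0.07 and 0.14 CPM and their mutants 3.75 to 7.01.

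The adult fast genes were counted in few molecules. Myh4 had 10 UMIs in the pooled Insm1 controls and 234 in the mutants, a ratio of 24.3 per UMI sequenced (exact 95% interval 13 to 51.3, counting error only). In the Tead1/2 libraries it had 12 and 3733 UMIs, a ratio of 173 (99.1 to 336). Myh1 had 4 and 77 UMIs in the Insm1 groups (ratio 20, interval 7.49 to 75.1), with all 4 control UMIs in Insm1 control 2, and 1 and 459 in the Tead1/2 groups (ratio 256, interval 45.6 to 10118). The fitted Insm1 change of Myh1, 4.16 on the log2 scale, was 3.19 without Insm1 control 1 and 7.86 without Insm1 control 2. The fitted Tead1/2 change of Myh1, 7.72, was 6.61 without Tead1/2 control 1 and 10.31 without Tead1/2 control 2. Myh2 had 3 and 42 UMIs in the Insm1 groups (ratio 14.5, interval 4.64 to 73.2). In the Tead1/2 groups it had 0 and 222, so that mutants were at least 41.2-fold higher, against a floor of 3 UMIs over the control group. Myh4 was the most unequal of the fast genes among Tead1/2 mutants, at 7.99, 11.9 and 2.73 CPM. Transcripts of the 7 genes resemble each other, so reads that match more than 1 of them could be misassigned, which bears most on these low counts beside abundant Myh3 and Myh8.

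The effect of Tead1/2 deletion at P7 was larger than that of Insm1 deletion for 3 of 7 members by edgeR, beside 3.68% of all genes called and 2.17% as larger. The differences were 1.57 on the log2 scale for Myh3 (SE 0.30, adjusted p = 0.0223), 2.08 for Myh8 (SE 0.42, adjusted p = 0.0286) and 2.45 for Myh6 (SE 0.53, adjusted p = 0.0379; 3.12 without Tead1/2 control 1, adjusted p = 0.0615). Myh7 (2.11, adjusted p = 0.129), Myh1 (3.56, adjusted p = 0.357) and Myh4 (2.68, adjusted p = 0.382) had the same sign and did not pass edgeR's test. DESeq2 called 4 members, with Myh7 as the fourth (2.09, adjusted p = 0.0101), beside 2133 of 24589 genes. Myh2 did not pass edgeR's test (adjusted p = 0.0828), and no size is given for it because the Tead1/2 controls held 0 UMIs. This call was fragile: 0 members were called without Insm1 control 1, without either Tead1/2 control or without Tead1/2 mutant 2, and 1 without Insm1 mutant 1 or Insm1 mutant 3. None was called with sex as a term or when all deposited barcodes were summed, where the Myh3 difference was 0.70 (adjusted p = 0.318).

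Isoform use is given as each gene's percentage of the summed counts of the 7 genes, not scaled for transcript length, so it is compared for the same gene between libraries. At P2 Myh8 held 66.0% to 75.4% of these counts in Insm1 controls and 75.7% to 77.9% in Tead1/2 controls, and Myh3 held 8.53% to 22.2% and 9.37% to 10.6%. In Insm1 mutants Myh3 held 58.0% to 71.3% and Myh8 23.8% to 35.6%. The Myh8 share was lower although its own level was not (14.8 to 17.7 CPM in mutants against 12.5 to 13.8 in controls), since a share falls when another member of the sum rises. In Tead1/2 mutants 1 to 3 Myh3 held 41.5%, 52.3% and 54.5% and Myh8 50.1%, 40.5% and 41.1%, and in the library labelled mutant 4 they held 10.8% and 78.3%. Myh7 held 8.47% to 14.1% in Insm1 controls and 2.702% to 4.86% in Insm1 mutants although its level overlapped.

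At P7 Myh3 held 80.2% to 82.7% of the members' UMIs in controls, 85.1% to 87.5% in Insm1 mutants and 80.8% to 84.6% in Tead1/2 mutants. The Tead1/2 controls held 0 cells of the muscle-marker clusters described below, and their barcodes under 100 UMIs held 316 and 390 CPM of Myh3. The labels list the P7 controls and mutants together as a mixed sample. The part of RNA from outside the cells in the control shares was not tested. Myh8 held 11.4% to 13.8% in Insm1 mutants and 14.2% to 17.6% in Tead1/2 mutants, which did not overlap. Its control shares were 14.9% to 17.7% for Insm1, above all 3 mutants, and 14.9% to 15.5% for Tead1/2, within the range of the mutants. Myh4 was at 0.155% to 0.325% in Insm1 controls and 0.373% to 0.463% in Tead1/2 controls, from 4 to 7 UMIs a library, and at 0.0521% to 0.0721% in Insm1 mutants and 0.111% to 0.312% in Tead1/2 mutants. Myh1 was at 0% and 0.217% in the Insm1 controls, 0% and 0.0745% in the Tead1/2 controls and at most 0.0435% in mutants. P2 and P7 differ in assay as well as age, so their shares are set side by side and not compared.

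**Figure D3:**
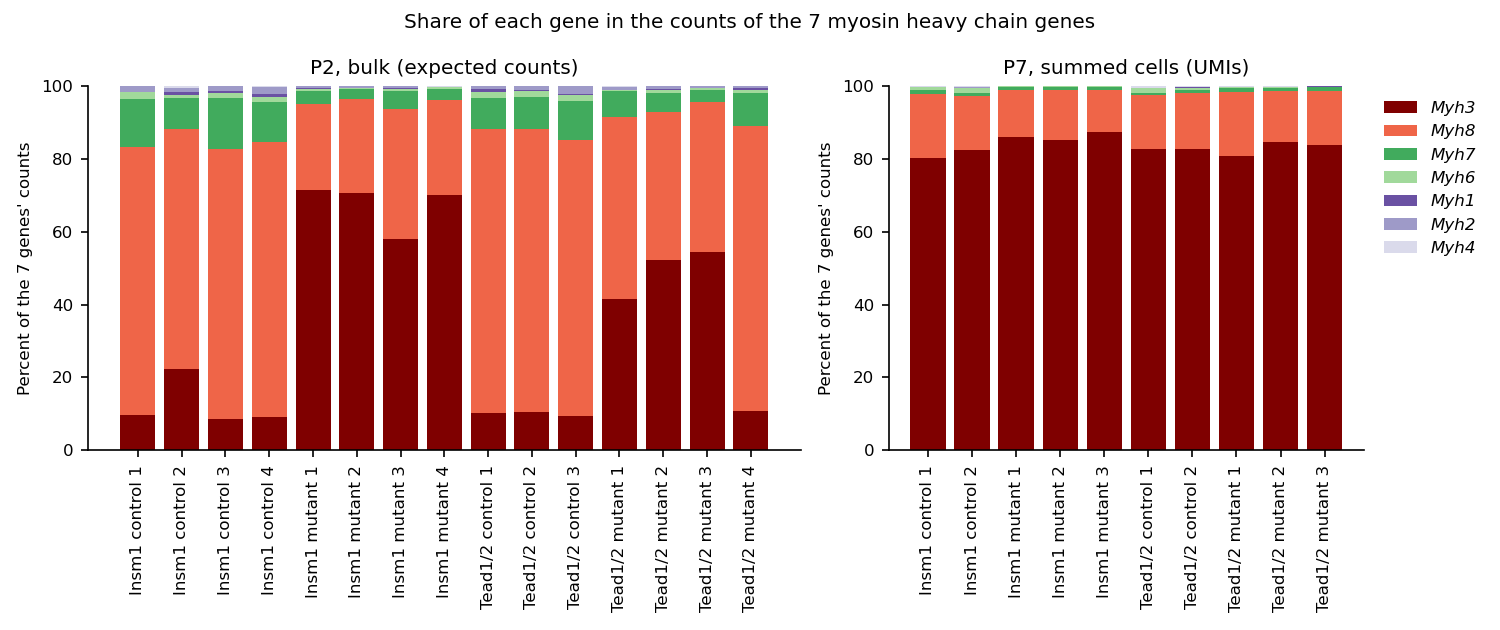
Percentage of the summed counts of the 7 genes held by each gene, in every P2 library (left, expected counts) and every P7 library (right, UMIs). At P2 the Myh3 share is 8.53% to 22.2% in Insm1 controls and 58.0% to 71.3% in Insm1 mutants; at P7 it is 80.2% to 87.5% over the 10 libraries.

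The P7 cells were clustered without a list of 86 genes of muscle, myosins and their regulators. It holds the 7 members and also general genes such as Hsp90aa1. This gave 34 clusters, of which 6 stay unnamed by their markers. Muscle genes outside that list were not left out, among them Tnnc2 and Trdn, leading genes of clusters 1 and 30. The clusters are thus not independent of muscle genes. Clusters 1, 13, 30 and 31 carried 10 to 16 of the 16 skeletal muscle markers and are called skeletal muscle-like. Cluster 32 carried 15 of them, but its leading genes included the smooth muscle actin Acta2, so it stays unnamed. These 5 clusters took up 14.2% to 16.5% of each Insm1 mutant and 21.8% to 30.5% of each Tead1/2 mutant. They took up 0.05% and 0.02% of the Insm1 controls and held 0 cells of the Tead1/2 controls. They held 70.8% to 77.9% of the Myh3 UMIs of clustered cells in Insm1 mutants and 77.8% to 89.3% in Tead1/2 mutants. In Insm1 control 1, 5 such cells held 19.7% of its 1914 Myh3 UMIs.

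Myh3 was highest in cluster 32 and in the skeletal muscle-like class in all mutants. In Insm1 mutants cluster 32 (3475 to 4274 CPM) lay above the skeletal muscle-like class (2873 to 3418 CPM), and in Tead1/2 mutants this order was turned (4699 to 5772 against 6305 to 7708 CPM). The largest cluster of the class was cluster 31 in Insm1 mutants (893 of 2601 cells) and cluster 30 in Tead1/2 mutants (2481 of 5198 cells). Next came fibroblast-like cells (862 to 982 CPM in Insm1 mutants and 1104 to 3121 in Tead1/2 mutants) and microglia-like cells (360 to 1053 and 1573 to 2760 CPM), whose ranges overlapped. Purkinje cell-like cells held 562 to 680 CPM in Insm1 mutants. In Tead1/2 mutants 1 to 3 they held 2533, 1992 and 41.4 CPM, from 10, 24 and 24 cells. Cluster 18 held 460 to 868 CPM in Insm1 and 987 to 2161 CPM in Tead1/2 mutants. Both overlapped with the microglia-like range in turn. Cluster 18 stays unnamed because it met 5 endothelial and 5 mural cell markers.

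Levels were lower in the interneuron-like class (104 to 139 CPM in Insm1 mutants and 200 to 534 in Tead1/2 mutants) and the astroglia-like class (73.6 to 83.6 and 53.5 to 158 CPM). Oligodendrocyte lineage-like cells ranged widely, at 39.2 to 365 CPM with Insm1 deletion and 379 to 1183 with Tead1/2 deletion. Granule progenitor-like cells, a class of the lineage that carries the deletion, held 17.9 to 34.2 CPM in Insm1 mutants and 53.5 to 126 in Tead1/2 mutants, beside 9.35 to 15.7 in controls. Granule neuron-like cells held 16.8 to 22.9 and 40.3 to 68.1 CPM, beside 10.4 to 15.5 in controls. These 2 classes overlapped in each group of mutants. They had the lowest medians of the named classes in Insm1 mutants, and in Tead1/2 mutants only mural cell-like cells (median 18.5 CPM, as few as 16 cells in a library) lay lower. The granule classes drew on partly different clusters in mutants and controls, so their levels may not compare like cells. The progenitor-like cluster 14 held 1288 Insm1 mutant, 3048 Tead1/2 mutant and 0 control cells. The neuron-like cluster 33 held 740 Insm1 mutant, 781 Tead1/2 mutant and 0 control cells.

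**Figure D4:**
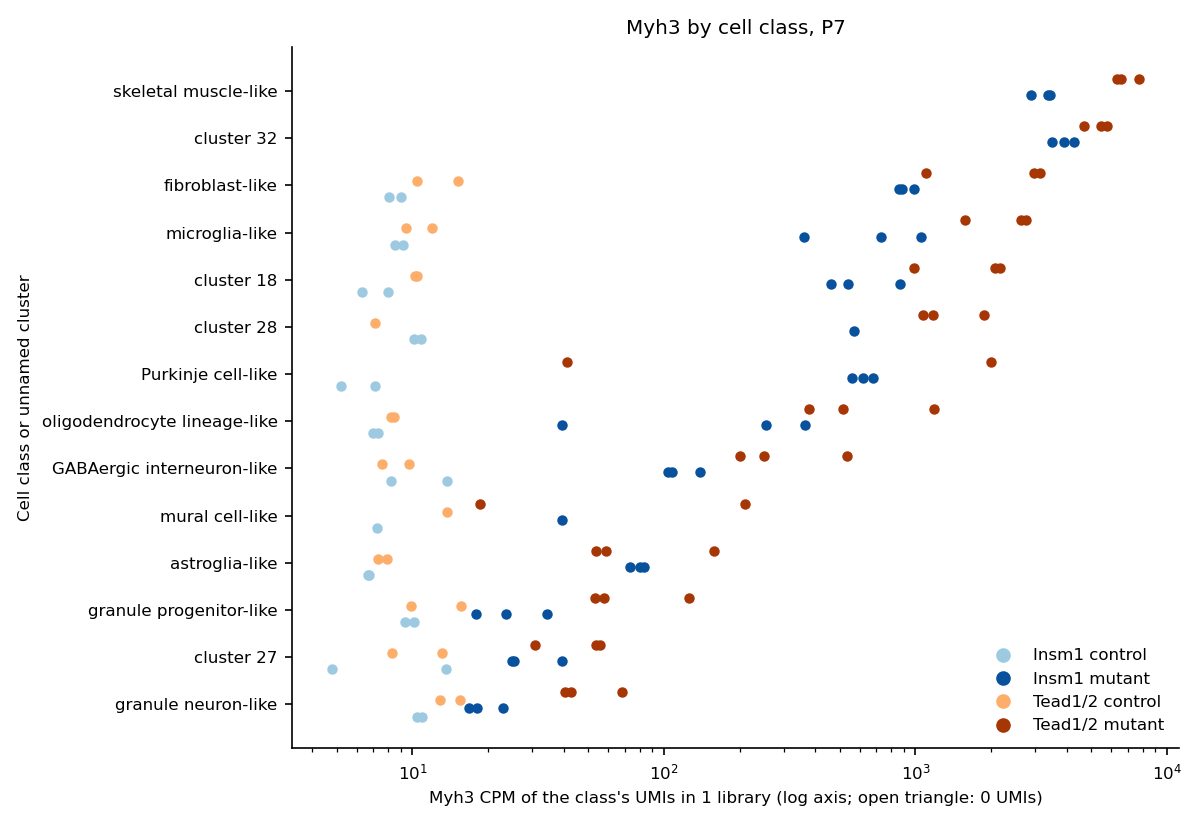
Myh3 level (CPM of the class's UMIs, log axis) by cell class or unnamed cluster at P7; each point is 1 library with at least 20 cells of that class. Cluster 32 and the skeletal muscle-like class as a whole lead in both mutants. Fibroblast-like and microglia-like cells of mutants lie between these and the granule classes, which have no mutant library within the control range. The granule classes drew on partly different clusters in mutants and controls.

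Barcodes under 100 UMIs, which can hold free RNA, debris or poorly captured cells, held 133 to 390 CPM of Myh3 in controls, 1076 to 1373 in Insm1 mutants and 2537 to 4305 in Tead1/2 mutants. Cluster 32 and the skeletal muscle-like class as a whole lay above the range of these values in both mutants. Within the class, clusters 30 and 1 lay above it, whereas cluster 13 (460 to 656 CPM in Insm1 and 714 to 1241 in Tead1/2 mutants) and cluster 31 (88.6 to 141 and 233 to 308 CPM) lay below it. Each other named class had a median below that range, except the fibroblast-like and microglia-like classes of Tead1/2 mutants, whose medians of 2961 and 2626 CPM lay within it. Summed skeletal muscle markers moved with Myh3: microglia-like cells held 51.04 to 69.8 CPM of the 16 markers in controls, 2471 to 5739 in Insm1 mutants and 9490 to 15163 in Tead1/2 mutants. The part of free RNA in the levels of the non-muscle classes and in the control counts was not tested.

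The number of Myh8 UMIs per 100 Myh3 UMIs differed between kinds of cells. It was 14.4 to 20.01 in barcodes under 100 UMIs of all 10 libraries. In Insm1 mutants, microglia-like cells (14.5 to 17.3) and fibroblast-like cells (13.2 to 18.4) had ratios in or near this range, and in Tead1/2 mutants they had 15.02 to 27.4 and 16.9 to 24.2. Interneuron-like cells had 4.60 to 9.25 in Insm1 mutants and 5.62 to 6.31 in Tead1/2 mutants, below that range in all 6 libraries, although they were at 14.04 to 19.4 in controls. This class drew on partly different clusters. For Insm1 and Tead1/2, its cluster 2 held 1948 and 1511 control cells but 166 and 192 mutant cells. Its cluster 17 held 58 and 49 control cells but 1147 and 1144 mutant cells. Astroglia-like cells had 11.6 to 16.98 in Insm1 mutants and 34.06 to 64.9 in Tead1/2 mutants, on either side of their controls (26.5 to 32.5). Within the muscle clusters it was 13.9 to 17.7 and 18.2 to 23.2 in cluster 30, but 2.41 to 4.96 and 2.93 to 4.83 in cluster 13 and 1.42 to 3.48 and 2.24 to 2.69 in cluster 32. The ratio compares the same pair of genes between cells and is not scaled for their lengths.

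Cluster 30 carried all 16 skeletal muscle markers and held the highest median level of each member in both mutants. Myh3 was at 5257, 6628 and 6731 CPM in the Insm1 mutants in increasing order and at 8817, 9274 and 10097 CPM in the Tead1/2 mutants. Myh8 had a median of 934 CPM (797 to 1174) in Insm1 mutants and of 1839 CPM (1603 to 2341) in Tead1/2 mutants. Its cells numbered 140 to 358 per Insm1 mutant and 630 to 1092 per Tead1/2 mutant, with median depths of 16407 to 23571 and 18173 to 26315 UMIs.

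In cluster 30 the 3 Tead1/2 mutants all lay above the 3 Insm1 mutants for Myh3, Myh8, Myh6, Myh1 and Myh4, beside 13.6% of 15105 genes that did so and 26.6% that lay below. Myh6 was at 6.89 to 7.30 CPM against 19.4 to 20.7, and Myh4 at 1.92 to 6.59 CPM against 14.1 to 38.9. Myh7 (56.1 to 88.7 against 78.3 to 156 CPM) and Myh2 (0.18 to 1.28 against 1.05 to 3.60 CPM) overlapped. With 3 libraries against 3, an exact permutation test cannot go below p = 0.1.

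Clusters 13, 31 and 32 held less Myh8 beside Myh3 than cluster 30, and cluster 1 did not: it had 12.8 to 19.6 Myh8 UMIs per 100 Myh3 UMIs in Insm1 mutants and 18.02 to 23.2 in Tead1/2 mutants. Cluster 1 held Myh3 at medians of 2349 and 4754 CPM in Insm1 and Tead1/2 mutants, with Myh8 at 373 and 973. Its cells had a median of 47075 UMIs, and it carried 6 astroglia markers beside the muscle ones. The part of doublets in it was not tested. Cluster 13, led by Myog among others, held Myh3 at 476 and 1167 CPM and Myh8 at only 16.1 and 36.5, and cluster 31 held 112 and 256 CPM of Myh3 and 3.92 and 19.8 of Myh8. Cluster 32 had Myh3 at 3891 and 5469 CPM but Myh8 at 73.8 and 122 and Myh7 at 1.17 and 0.

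**Figure D5:**
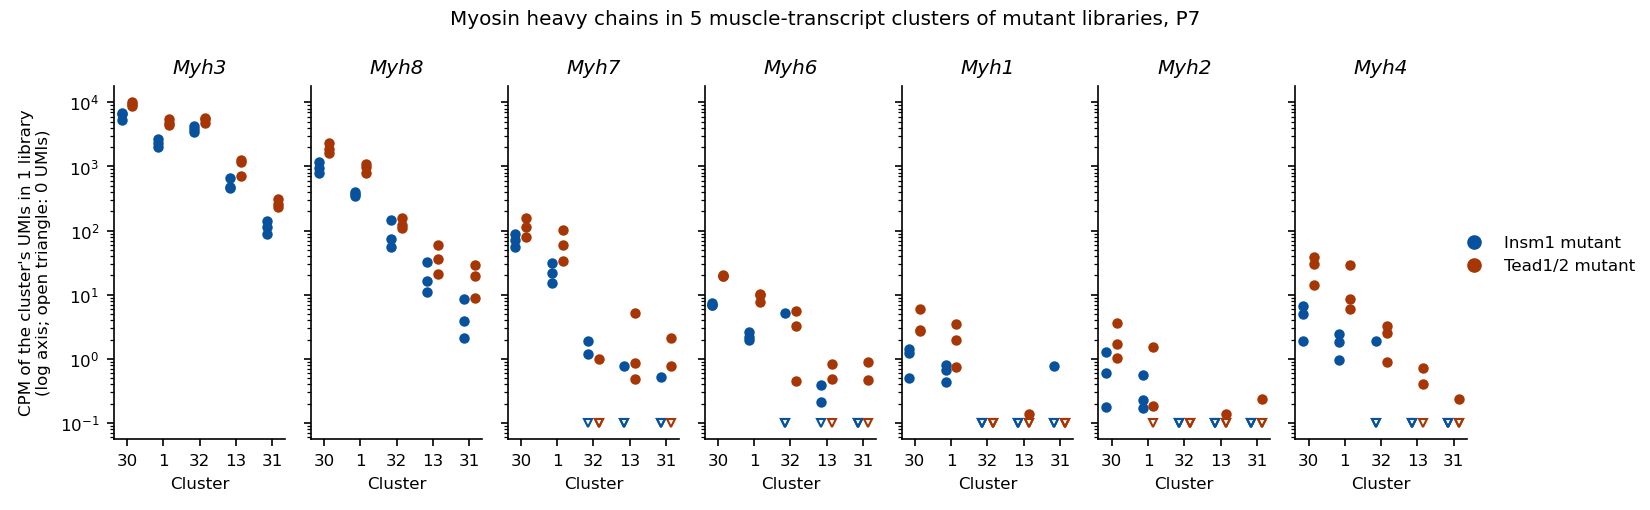
Level of each gene (CPM of the cluster's UMIs, log axis) in the 5 clusters with skeletal muscle markers, for the 3 Insm1 and the 3 Tead1/2 mutant libraries; open triangles are 0 UMIs. Cluster 30 has the highest median for all 7 genes, and cluster 32 has much Myh3 with little Myh8 and Myh7.

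Cells were thinned to 2000 UMIs to compare shares of cells with a UMI. For Insm1, at least 1 member was seen in 2.32% and 2.36% of control cells and in 13.1%, 15.3% and 15.4% of mutant cells, a mean difference of 12.3 percentage points. For Tead1/2 the shares were 2.61% and 3.42% in controls and 26.03%, 36.8% and 23.9% in mutants, a difference of 25.9 points. Mutants and controls did not overlap, and both exact two-sided permutation tests gave p = 0.2, the smallest p that 2 against 3 libraries allow. Thinning left out 389 Insm1 control, 331 Insm1 mutant, 241 Tead1/2 control and 382 Tead1/2 mutant cells. Without it, the mean share was 13.3% in controls and 30.7% in mutants of Insm1, and 13.4% and 47.6% in those of Tead1/2. Microglia, which do not make sarcomeres, carried a Myh3 UMI in 12.3% to 16.9% of thinned microglia-like cells of Insm1 mutants and in 15.3% to 28.9% in Tead1/2 mutants. The part of free RNA in the whole-library shares was not tested.

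Within cluster 30, Myh3 was detected in nearly every thinned cell, from 98.1% to 99.9% over the 6 mutant libraries. Myh8 was detected in 69.1% to 72.2% of cells of Insm1 mutants and in 82.1% to 88.8% of cells of Tead1/2 mutants, which did not overlap. Myh7 was detected in 8.27% to 10.7% and 10.5% to 14.5%, and Myh4 in 0.79% to 3.60% and 2.71% to 4.52%. In the 6 mutant libraries, every thinned cluster 30 cell with a UMI of Myh7, Myh4, Myh1 or Myh2 also had a UMI of Myh3. With Myh3 in 98.1% to 99.9% of all these cells, such an overlap was nearly fixed for any gene.

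Other genes of the thick filament were followed through lists, whose counts stand beside 0.48% of all genes called higher in P2 Insm1 mutants, and 18.6% and 25.9% in P7 Insm1 and Tead1/2 mutants. Of 10 thick filament and M-band partners, 9 were tested at P2 and 5 were higher in Insm1 mutants, with a list median log2 change of 0.55 against 0.01 over all genes. Titin (Ttn), the elastic protein that runs from Z-disc to M-band, rose by 2.54 (SE 0.18, adjusted p = 0.000269, edgeR). At P7 all 10 were higher in both comparisons, with medians of 4.86 and 6.76 against 0.04 and 0.06 over all genes. Of the myosin light chains, 3 of 4 tested were higher in P2 Insm1 mutants, among them the fast skeletal chain Mylpf, which rose by 4.32 (SE 0.47, adjusted p = 0.00289). At P7 6 of 6 tested were higher in both comparisons (medians 3.29 and 4.86).

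Of 4 genes of myosin folding, Unc45b and Smyd1, the muscle-specific chaperone and its partner, were higher in P2 Insm1 mutants (2.02 and 1.93, adjusted p = 0.0063 and 0.00688, edgeR) and at P7 in both comparisons. Unc45a, the general form, did not pass at P7, with 0.10 and -0.11. Hsp90aa1, a general chaperone, fell by 0.30 and 0.59 at P7 (adjusted p = 0.0442 and 0.000811, edgeR). Of 7 other myosin heavy chains, none of the 6 tested passed in P2 Insm1 mutants. At P7 3 were higher and 1 lower in Insm1 mutants, and 4 higher and 1 lower in Tead1/2 mutants, beside 33.9% and 48.6% of all genes called. The lower one was Myh10, a nonmuscle chain, which fell by 0.23 and 0.71 on the log2 scale (adjusted p = 0.0185 and 9.5e-06). Myh7b, a striated muscle chain, rose by 2.33 and 3.27.

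Of 22 regulators of myosin genes, 3 of 17 tested were higher in P2 Insm1 mutants, and at P7 18 were higher and 1 lower with Insm1 deletion and 20 higher and 1 lower with Tead1/2 deletion (medians 1.46 and 2.06), beside 0.48% of all genes called higher at P2 and 18.6% and 25.9% at P7. The list holds the targeted genes Tead1 and Tead2. Mef2c, a transcription factor of striated muscle and neurons, rose by 0.37 at P2 (adjusted p = 0.0175, edgeR) and by 2.58 and 3.33 at P7. Of 11 mature fibre genes, 2 of 9 tested were higher in P2 Insm1 mutants, and at P7 10 and 11 were higher (medians 4.76 and 6.71). Atp2a1, the calcium pump of fast fibres, rose by 5.95 and 7.63. Of 10 heart chamber genes, 6 were tested at P7, and 2 were higher and 1 lower in each comparison (medians 0.26 and -0.22), beside 33.9% and 48.6% of all genes called in either direction. Hcn4, a pacemaker channel, was the lower one, at -0.49 and -0.85. The higher ones were Sln (5.70 and 7.38) and Myl4 (4.01 and 5.15), which developing skeletal muscle also expresses. Of 8 vascular smooth muscle genes, 5 were higher in each P7 comparison (medians 1.26 and 1.71), beside 18.6% and 25.9% of all genes. Among them were Acta2 (6.53 and 6.20) and Des (5.96 and 7.29), which developing striated muscle expresses as well, the smooth muscle regulator Myocd (1.90 and 2.60) and Smtn (1.15 and 1.61). At P2, 2 of 5 heart chamber and 2 of 6 vascular smooth muscle genes tested were higher in Insm1 mutants. In the P2 Tead1/2 comparison none of these lists had a member called, and without the library labelled mutant 4, where 1.98% of all genes were called higher, the counts of higher genes were 3 of 9 thick filament, 2 of 4 light chain, 2 of 4 folding, 4 of 18 regulator (with the targeted gene Tead2 lower), 3 of 9 mature fibre, 1 of 5 heart chamber, 1 of 6 vascular smooth muscle and 0 of 7 other myosin heavy chain genes (median log2 change -0.16).

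The 5 genes whose level across libraries was most like that of Myh3 were taken at each age. Over the 15 P2 libraries, Pearson's r of log2 CPM with Myh3 was highest for Ttn (0.98), Mylpf (0.98), Smyd1 (0.97), Myl1 (0.97) and Actc1 (0.97), among 16373 genes. Over the 10 P7 libraries they were Tpm2, Ttn, Tmod1, Myot and Ldb3, with r between 0.9993 and 0.9996, among 15475 genes. These values describe libraries that fall into mutants and controls, and they share the libraries' groups and depth.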

How the data were processed

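For the P2 samples the deposited values are expected counts of each gene from RSEM, unscaled, made from stranded total RNA. For P7 the authors deposited raw UMI counts per gene and barcode from a Parse Evercode split-pool kit, for barcodes with at least 10 UMIs. The submitters' processing notes name STAR 2.7.9a, RSEM 1.3.3 and GRCm38.p6; the strand setting, the P7 aligner and the cell filter are not given in the sources at hand, and the P7 gene tables name a GRCm39 genome. RSEM splits reads shared by similar genes.

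Expected counts were rounded and tested with edgeR 4.0.16 (quasi-likelihood, TMM factors, filterByExpr) within each allele. Benjamini-Hochberg adjusted p under 0.05 is a call, and the 2 effects were compared by an interaction contrast. P7 cells (at least 1000 UMIs, at least 500 genes, under 15% mitochondrial) were summed per library and fitted together. CPM in library values use TMM-scaled totals; CPM by class, cluster or low barcode and pooled ratios use plain totals. Clustering used scanpy 1.11.5 on 76640 of 79838 cells, after the 4% of cells with the highest Scrublet scores per library were removed. Of 2000 variable genes 1964 were used, since those on the list of 86 genes were left out. No barcode was shared between libraries. Replicates are separate animals. DESeq2 1.42.0 was a further tool. The edgeR fits were also run on simulated counts, which held no library set apart from its group, as P2 Tead1/2 mutant 4 is. All 7 members are named, with the most abundant members of each list and the 5 genes most like Myh3. The members and lists were chosen with earlier results of these data known. Same-numbered libraries did not deviate together. Transcript lengths were not used here.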

Additional observations from a re-analysis of the deposited data

Results flagged for a closer look

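Among the P2 groups of 4 libraries, Myh3 in Insm1 control 2 was at 4.19 CPM while the other 3 controls lay between 1.52 and 1.83, and Myh3 in Insm1 mutant 3 was at 24.0 CPM while the other 3 mutants lay between 46.2 and 50.2. Each gap was larger than Dixon's 95% limit for 4 samples, in 2 of 21 groups examined, and chance flags about 1 in 20. The summed skeletal muscle markers were likewise highest among controls in Insm1 control 2 (43.3 CPM) and lowest among mutants in Insm1 mutant 3 (154 CPM).

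At P7 the Tead1/2 effect exceeded the Insm1 effect by the interaction test for Myh3 (1.57 on the log2 scale), Myh8 (2.08) and Myh6 (2.45). These calls were fragile: no member was called with sex as a term, with all deposited barcodes or when certain libraries were left out. The summed muscle markers were also higher in Tead1/2 mutants (12026 to 18447 CPM) than in Insm1 mutants (5077 to 5981 CPM).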

How the results depend on the processing

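The Myh3 call of the P2 Insm1 comparison and the 7 P7 calls of each allele held under each alternative run, except that Scrublet's own threshold left 5 of the 7 P7 Insm1 calls; that threshold marked 0% of cells in some libraries and 55.3% in another. In the P2 Insm1 comparison DESeq2 called 2 members, beside 312 of 19572 genes. In the P2 Tead1/2 comparison 1 member, Myh3, was called by DESeq2, without the low-count filter, with the replicate block and without Tead1/2 mutant 4, and leaving out 1 library gave 0 to 1. In the P7 test of the difference 0 members were called with sex as a term and 0 with all deposited barcodes, 2 with the replicate block, 4 by DESeq2, and leaving out 1 library gave 0 to 3. The replicate numbers did not pair the samples (r of same-numbered deviations -0.18 to 0.33 at P2 and -0.18 to -0.07 at P7), and 1 of 4, 0 of 3, 0 of 2 and 0 of 2 controls correlated best with their own number. Genes called over the whole table ranged from 64 to 312 (P2 Insm1, 135 as reported), 0 to 1287 (P2 Tead1/2, 0) and 195 to 2133 (P7 difference, 906).

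The share of cells with a member UMI rose by 10.7 points in Insm1 mutants with thinning to 1000 UMIs, by 17.4 without thinning and by 8.34 with Scrublet's own threshold, against 12.3; leaving out 1 library gave 11.9 to 13.04. In Tead1/2 mutants it rose by 34.2 points without thinning, against 25.9, and by 22.0 to 28.4 leaving out 1 library. With Scrublet's own threshold, Myh3 in skeletal muscle-like cells had a median of 2873 CPM in Insm1 and 8581 in Tead1/2 mutants, and Myh8 1882 in Tead1/2 mutants. The cause of these shifts was not tested.

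Values near 0 changed sign without passing a test. For P2 Myh7 in the Insm1 comparison, sex as a term gave 0.057 and leaving out 1 library gave -0.13 to 0.069. For P2 Myh7 leaving out 1 library gave -0.026 to 0.13 in the Tead1/2 comparison and -0.0041 to 0.22 in the difference of effects. For P2 Myh2 in the Tead1/2 comparison, the replicate block gave 0.0086 and leaving out 1 library gave -0.33 to 0.21, and in the difference of effects -0.56 to 0.079. The P7 difference of effects for Myh1, 3.56 as reported and not called, was not near 0 but ranged from -0.15 without Insm1 control 2 to 6.16 without Tead1/2 control 2. The scaling for transcript length was not run because no lengths were used. Counts of the adult fast genes limit what P2 can show.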
